A study of Homo sapiens with 6 samples.

Results

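The subject is a set of 10 human genes of antigen processing and presentation, measured in MDA-MB-231, an established line of human breast cancer cells that lacks most epithelial traits. The genes are PSMB8, PSMB9, TAP1, TAP2, TAPBP, ERAP1, ERAP2, B2M, HLA-E and CD74. Members are the probe sets whose only gene symbol in the platform annotation is one of these names, and 29 of the 54675 probe sets on the array qualified. The rule matched names alone, but the 10 names were chosen with earlier results of these data known. Expression was read on 6 single-colour Affymetrix arrays. The 3 arrays labelled GATA3 held RNA of cells transduced with a lentivirus for GATA3, a transcription factor of luminal mammary cells, together with enhanced green fluorescent protein (GFP). The 3 GFP control arrays held RNA of cells given a lentivirus for enhanced GFP alone, so the controls carry a lentivirus and GFP too. Cells of both kinds were sorted for GFP. The labels do not say whether either line came from a single clone, nor that the triplicates were separate cultures, so the spread behind each p-value is that among these arrays and may be technical only.

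Cells show samples of their own proteins on the surface in grooves of major histocompatibility complex (MHC) class I molecules. The proteasome cuts the proteins, and cells exposed to interferon swap its standard catalytic subunits for induced ones, among them the products of PSMB8 and PSMB9. The transporter made of TAP1 and TAP2 carries the peptides into the endoplasmic reticulum, ERAP1 and ERAP2 trim them there, and tapasin, from TAPBP, holds empty class I molecules at the transporter. B2M encodes the light chain shared by all class I molecules, HLA-E is a class I molecule read by natural killer cells, and CD74 is the invariant chain that guides class II molecules in antigen-presenting cells. In tumour cells, loss of such genes is a known route of escape from T cells.

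Promoter sequences of the set are shown because most of these genes are known targets of interferon and share the DNA letters of its response. RefSeq windows (GRCh38.p14) of 250 bases before to 50 bases after an annotated start were matched by symbol, which gave 13 windows for 9 of the 10 genes. PSMB9 and TAP1 lie next to each other on chromosome 6 and are read in opposite directions, with 487 bases between their annotated starts. These bases are printed as the 250 bases before each start, on each gene's own strand, and the 2 stretches overlap by 13 bases. Capitals mark the core of the interferon-stimulated response element (GAAANNGAAA on either strand) and a kappaB site (GGGACTTTC on either strand). The TAP1 stretch holds 2 overlapping matches of the core.
PSMB9, chr6:32853942-32854191, plus strand: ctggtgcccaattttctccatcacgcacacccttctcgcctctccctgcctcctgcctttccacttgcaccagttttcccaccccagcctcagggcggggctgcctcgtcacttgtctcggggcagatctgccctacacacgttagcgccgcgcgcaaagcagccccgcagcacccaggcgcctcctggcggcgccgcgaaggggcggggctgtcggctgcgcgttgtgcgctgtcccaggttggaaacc
TAP1, chr6:32853705-32853954, minus strand: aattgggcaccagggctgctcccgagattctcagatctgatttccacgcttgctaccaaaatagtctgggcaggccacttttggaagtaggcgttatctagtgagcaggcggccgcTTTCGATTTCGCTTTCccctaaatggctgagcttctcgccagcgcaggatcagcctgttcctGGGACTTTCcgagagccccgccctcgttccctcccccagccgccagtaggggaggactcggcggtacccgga
The response element letters began 134 and 128 bases before the TAP1 start. Seen from PSMB9, the same letters began 363 and 369 bases before its start, outside that gene's own window, which held none.

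The other genes with the same letters are shown by a short stretch around 1 match each, in the direction of the gene, with the match in capitals.
PSMB8, chr6:32844032-32844061, minus strand: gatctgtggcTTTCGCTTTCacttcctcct
TAP2, chr6:32838778-32838807, minus strand: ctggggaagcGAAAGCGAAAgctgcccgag
TAPBP, chr6:33314079-33314108, minus strand: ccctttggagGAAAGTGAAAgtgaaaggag
ERAP1, chr5:96807924-96807953, minus strand: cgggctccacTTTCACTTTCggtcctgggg
ERAP2, chr5:96876460-96876489, plus strand: tcttagaacaGAAAGTGAAAgcaaaagtaa
B2M, chr15:44711369-44711398, plus strand: ctaagaaaagGAAACTGAAAacgggaaagt
In all, 7 of the 9 genes with a window (7 of 13 windows) held GAAANNGAAA, against 4.38% of all 27305 genes and 3.57% of all 35116 windows in the same table. CD74 held none. The kappaB letters stood in the windows of B2M and TAP1, and in 0.387% of all windows. GATA letters stood at shares closer to those of all windows. AGATAA was found in 2 of the 13 windows (TAP1 and ERAP2), against 10.3% of all windows, and TGATAA in 2 (TAP2 and ERAP2), against 7.53%, both strands searched. Also searched, and not drawn, were the letters of the gamma-activated sequence (TTCNNNGAA) and the CCAAT box. The former stood in 2 of the 13 windows (TAP1 and PSMB8), against 7.66% of all windows. CCAAT stood in 5 (B2M, TAP1, PSMB9, ERAP1 and CD74), against 34.6%. A match of letters is a description of the sequence and not a site shown to be bound.

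**Figure D1:**
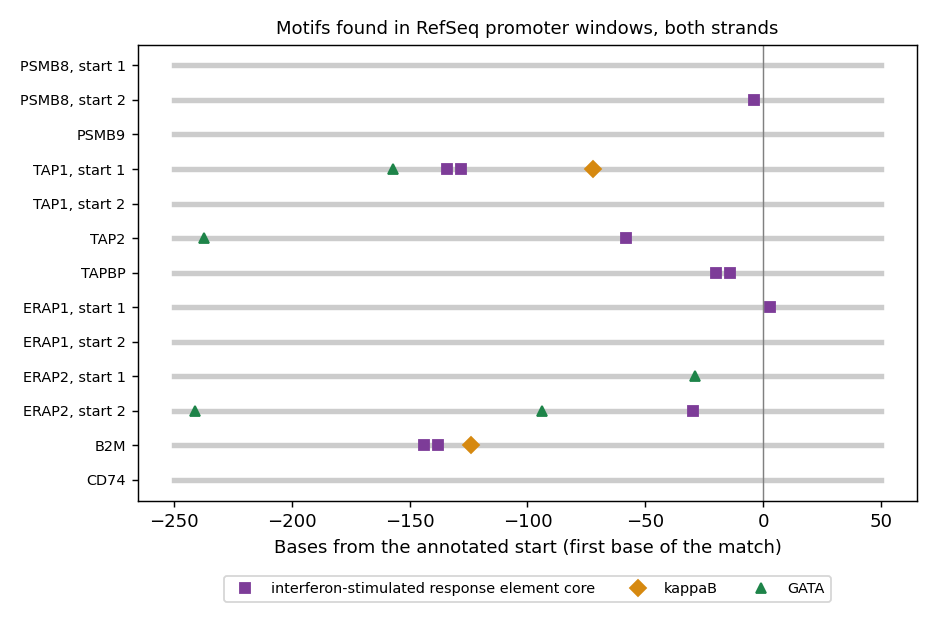
Positions of 3 kinds of motif in the 13 promoter windows of 9 genes. The horizontal axis gives bases from the annotated start (line at 0), each grey bar is a window of 300 bases, and each symbol is the first base of a match on either strand; TAP1 and B2M carry response element and kappaB letters close together, and PSMB9 and CD74 have no mark.

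The arrays' expression values, from GCRMA, were taken to be on a log2 scale, on which a step of 1 is a doubling. Probe sets were tested if they lay over 4 on at least 3 of the 6 arrays, a level taken here as detection. A change is the mean of the arrays labelled GATA3 minus the mean of the GFP control arrays, and passes at an adjusted p under 0.05 (limma with Benjamini-Hochberg adjustment over all 23785 tested probe sets). Array medians were 2.70 to 2.78. Replicate 3 of the arrays labelled GATA3 alone belongs to a second set of raw files and correlated with the other 2 at 0.984 to 0.986, against 0.997 between those 2 and 0.995 to 0.996 within the GFP control. GATA3 itself went against the label, as its brightest probe set (209604_s_at) read 7.93, 7.94 and 7.32 in the arrays labelled GATA3 and 9.37, 9.35 and 9.45 in the GFP control, 3.16-fold lower (adjusted p 0.00238 by limma). The dimmer 209602_s_at lay under 4 on all arrays labelled GATA3 and was at least 1.66-fold lower. It was tested only because the GFP control arrays lay over 4, so it had to differ and adds no support. Probe set 209603_at of GATA3, at 2.16 to 2.54 with overlapping groups, was not tested. It is not known here if any GATA3 probe set detects RNA from the lentivirus, and all directions below rest on the labels. The 7 markers of MDA-MB-231 cells that were looked up all lay over 4 on every array. Some of them differed between the groups. VIM was lower in the arrays labelled GATA3 (log2 change -0.32), EGFR, KRT8 and KRT18 were higher (0.33, 0.60 and 0.52), and the others did not pass. The summed level of that list was 16.63 to 16.77 in the arrays labelled GATA3 and 16.60 to 16.65 in the GFP control. Of 11 leukocyte and antigen-presenting cell markers with a probe set, 10 were under 4 on every array, with PTPRC, CD14, MS4A1, ITGAX and ITGAM among them and CD79A as the exception. The summed level of the leukocyte and antigen-presenting cell list, on the log2 scale, was 5.99 to 6.45 in the arrays labelled GATA3 and 5.96 to 5.97 in the GFP control. All 4 endothelial markers and 4 of 7 fibroblast markers lay under 4 on every array. The summed level of the fibroblast list was 11.10 to 11.12 in the arrays labelled GATA3 and 7.68 to 7.75 in the GFP control, through LUM, and its part in the results was not tested.

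All 10 genes had at least 1 tested probe set, and 16 of the 29 probe sets were tested. The other 13 stayed under 4 on every array, with 3.76 as their highest value, and were not tested. Of the 16 tested, 1 was higher in the arrays labelled GATA3, 3 were lower and 12 did not pass, while 25.3% of all tested probe sets passed in either direction, 11.3% higher and 14.0% lower. With each gene read by its brightest tested probe set, 1 gene was higher (TAP1), 1 was lower (PSMB9) and 8 did not pass. Over all 10814 genes so read, 29.3% passed, 14.8% higher and 14.5% lower. By these readings the share of members that changed was near the background. Read instead by the mean of their tested probe sets, 1 of the 10 genes was higher and 5 lower, against 1642 and 1987 of 10814 genes. The median change by brightest probe set was -0.16 over the 10 genes and -0.02 over all genes. In 10 of the 16 tested probe sets the groups did not overlap, with the arrays labelled GATA3 below in 8 and above in 2, against 46.0% of all tested probe sets with no overlap. Read by gene, 6 of the 10 (PSMB9, TAP1, ERAP1, ERAP2, B2M and HLA-E) had no overlap, against 49.5% of all genes. In a cell population, fewer cells that express a gene and less RNA per cell cannot be told apart.

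**Figure D2:**
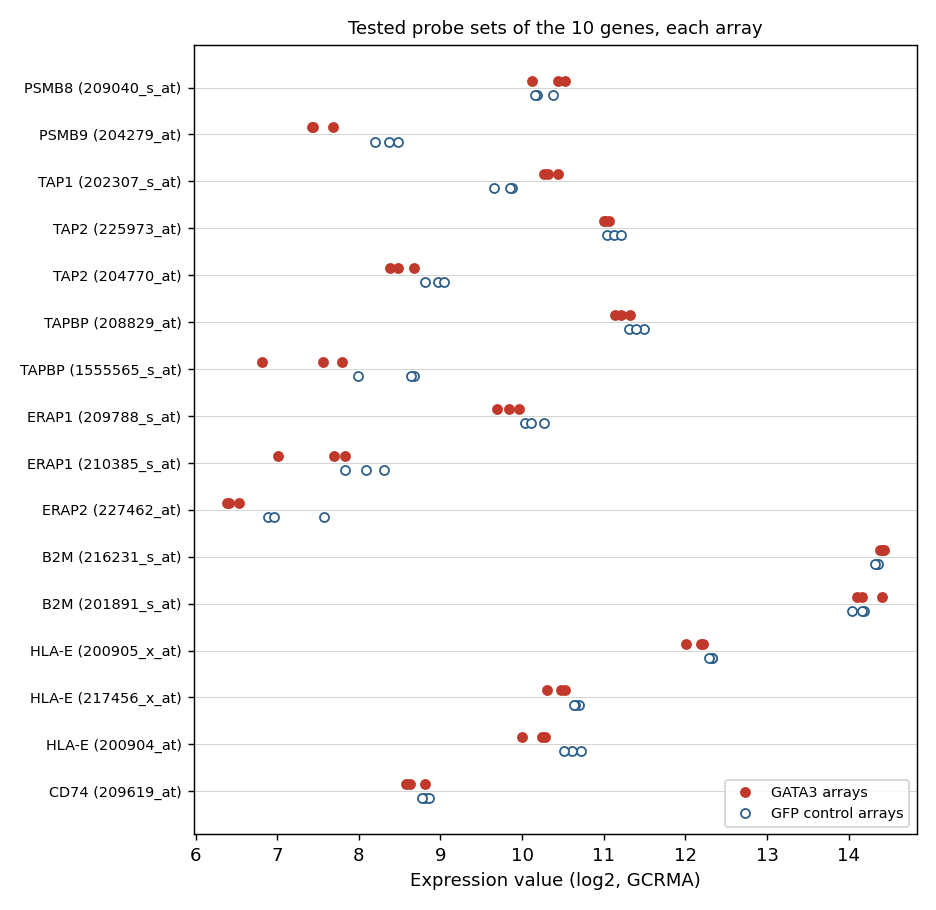
Expression values (log2, horizontal axis) of the 16 tested probe sets of the 10 genes on each array, filled points for the 3 arrays labelled GATA3 and open points for the 3 GFP control arrays. The groups stand apart for PSMB9, where the arrays labelled GATA3 are lower, and for TAP1, where they are higher, and lie together for PSMB8 and CD74.

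Of the induced proteasome subunits among the members, PSMB9 passed the threshold and PSMB8 did not. PSMB9, which encodes the induced subunit beta1i, read 7.68, 7.43 and 7.44 in the arrays labelled GATA3 and 8.48, 8.20 and 8.36 in the GFP control (204279_at, replicates 1 to 3). Every array labelled GATA3 lay below every control array. PSMB9 fell by 0.83 on the log2 scale (SE 0.11, 95% interval -1.11 to -0.55), 1.78-fold lower, with an adjusted p of 0.00494 by limma. Among all tested probe sets, 10.6% had a change of at least this size. PSMB8, which encodes the induced subunit beta5i, read 10.53, 10.43 and 10.13 in the arrays labelled GATA3 and 10.38, 10.18 and 10.16 in the GFP control (209040_s_at). These groups overlapped, and the change of 0.12 (95% interval -0.18 to 0.43) did not pass, with an adjusted p of 0.492. Without replicate 3 of the arrays labelled GATA3, the lowest of its group, the change of PSMB8 was 0.24 (adjusted p 0.0970).

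The partners of these subunits were read beside them. PSMB10, which encodes the induced subunit beta2i, read 8.37, 8.03 and 7.69 in the arrays labelled GATA3 and 8.76, 8.61 and 8.77 in the GFP control, 1.61-fold lower (log2 change -0.68, SE 0.18, adjusted p 0.0434). The groups did not overlap. That call was lost without any 1 of GFP control replicates 1, 2 and 3 (adjusted p 0.127, 0.102 and 0.136) or without GATA3 replicate 2 (0.114). PSMB5, which encodes the standard subunit that beta5i replaces, read 12.50, 12.46 and 12.50 in the arrays labelled GATA3, all above the 12.17, 12.04 and 12.04 of the GFP control. It rose 1.32-fold (log2 change 0.40, SE 0.05, adjusted p 0.00278). PSMB6, the standard partner of PSMB9, changed by 0.10 (adjusted p 0.0717), and PSMB7, the standard partner of PSMB10, by -0.02 (adjusted p 0.781) by its brightest probe set. A dimmer PSMB7 probe set (244801_at) averaged 6.08 ± 0.50 in the arrays labelled GATA3 and 7.16 ± 0.34 in the GFP control (SD, n = 3 each), with an adjusted p of 0.0507.

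Within each array, the induced subunit was set against its standard partner as a difference of log2 values. Levels of different probe sets are not comparable, so only the shift of that difference between groups is read. PSMB9 minus PSMB6 was -5.66 ± 0.13 in the arrays labelled GATA3 and -4.74 ± 0.11 in the GFP control (SD, n = 3 each), a shift of -0.93. For PSMB10 minus PSMB7 the shift was -0.66, and for PSMB8 minus PSMB5 it was -0.28, in which the rise of PSMB5 was larger than the change of PSMB8. In all 3 pairs the arrays labelled GATA3 lay below every control array. Each gave a two-sided exact permutation p of 0.1, the smallest that 3 arrays against 3 allow, and 0.1 after adjustment over the 6 differences of this kind that were computed. These differences were chosen after the values had been seen. PSMB9 lay below and PSMB6 above every control in the arrays labelled GATA3, so their difference had to separate the groups. PSMB10 and PSMB5 each separated the groups on their own, while PSMB7 changed by -0.02 and PSMB8 by 0.12. The separation of those pairs largely restates PSMB10 and PSMB5, so the 3 pairs add no support for a common shift.

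**Figure D3:**
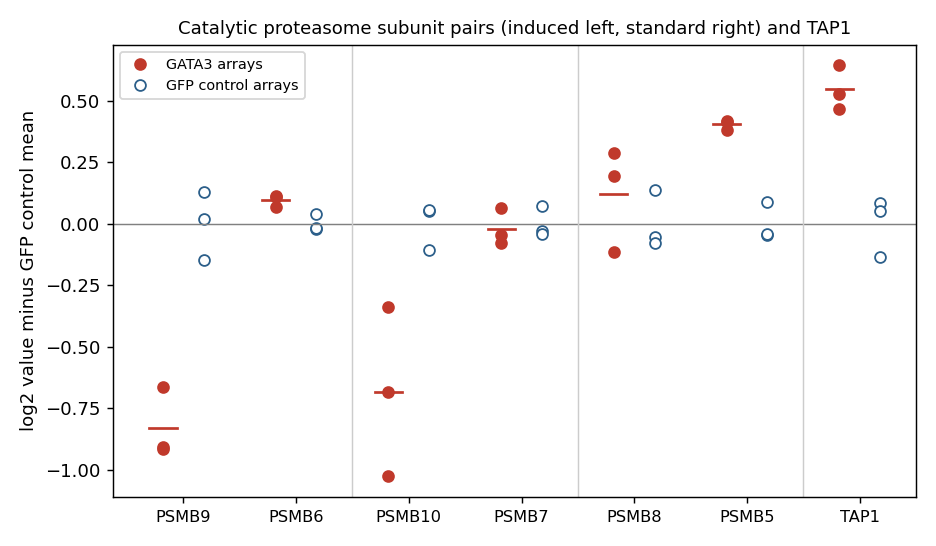
Each point is 1 array's log2 value minus the mean of the GFP control arrays (vertical axis), filled for the arrays labelled GATA3 with a bar at their mean, open for the GFP control. PSMB9 and PSMB10 lie below 0 in all 3 arrays labelled GATA3. PSMB5 and TAP1 lie above the controls, PSMB6 does so by little, and PSMB7 and PSMB8 overlap them.

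The peptide transporter subunits differed from each other. TAP1 read 10.44, 10.32 and 10.26 in the arrays labelled GATA3 and 9.88, 9.85 and 9.66 in the GFP control (202307_s_at). All 3 arrays labelled GATA3 were above all 3 controls. TAP1 rose 1.46-fold (log2 change 0.55, SE 0.08, 95% interval 0.34 to 0.75), with an adjusted p of 0.00696 by limma. TAP1 was therefore higher where PSMB9, its neighbour across the 487 bases printed above, was lower. The PSMB9 minus TAP1 difference within an array was -2.82 ± 0.07 in the arrays labelled GATA3 and -1.45 ± 0.18 in the GFP control (SD, n = 3 each), a shift of -1.38 (two-sided exact permutation p = 0.1). Each gene already separated the groups, in opposite directions. Their difference therefore had to separate the groups too, its p was fixed, and it adds no support. Leaving out the array of the second raw-file set, TAP1 changed by 0.59 (adjusted p 0.0112) and PSMB9 by -0.79 (adjusted p 0.0128).

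TAP2 gave different answers by probe set. Its brightest (225973_at) read 11.00, 11.02 and 11.07 in the arrays labelled GATA3 and 11.04, 11.13 and 11.21 in the GFP control. The groups overlapped and the change of -0.10 did not pass (adjusted p 0.239). Probe set 204770_at read 8.67, 8.38 and 8.48 in the arrays labelled GATA3, below the 8.98, 9.04 and 8.80 of the GFP control, and was 1.35-fold lower (adjusted p 0.0350). Leaving out GFP control replicate 1, 2 or 3 ended this call (adjusted p 0.108, 0.117 and 0.0523), as did leaving out GATA3 replicate 2 or 3 (0.0997 and 0.0679). Probe sets 204769_s_at and 208428_at of TAP2 lay under 4. No probe set of TAP2 was higher, so the transporter's subunits did not rise together on these arrays. In order along chromosome 6 the annotation has TAP2, PSMB8, the antisense gene PSMB8-AS1, TAP1 and PSMB9, and the changes of the 4 members in that order were -0.10, 0.12, 0.55 and -0.83.

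Tapasin was lower by little or by much, depending on the probe set, and neither passed. TAPBP probe set 208829_at read 11.21, 11.14 and 11.33 in the arrays labelled GATA3 and 11.49, 11.31 and 11.39 in the GFP control, a change of -0.17 (adjusted p 0.133). Probe set 1555565_s_at read 7.79, 7.56 and 6.81 in the arrays labelled GATA3 and 8.67, 7.98 and 8.64 in the GFP control. There the groups did not overlap, but their spread was wide, and the change of -1.04 (95% interval -1.83 to -0.26) had an adjusted p of 0.0646. The lowest reading was that of GATA3 replicate 3, and without it the change was -0.76 (adjusted p 0.0900). TAPBP probe set 210294_at, at 2.53 to 2.78, was not tested.

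The aminopeptidases that trim peptides in the endoplasmic reticulum were lower in mean and did not pass the threshold. ERAP2 read 6.53, 6.39 and 6.41 in the arrays labelled GATA3 and 6.88, 6.96 and 7.57 in the GFP control (227462_at). No array labelled GATA3 reached the lowest control. The change was -0.70 (SE 0.20, 95% interval -1.19 to -0.21), with an adjusted p of 0.0529. GFP control replicate 3 was the highest array, and without it the change was smaller, -0.48, and passed (adjusted p 0.0346). ERAP1 read 9.84, 9.96 and 9.70 in the arrays labelled GATA3 and 10.04, 10.11 and 10.27 in the GFP control (209788_s_at), a change of -0.31 (adjusted p 0.0689) with no overlap. Its other tested probe set (210385_s_at) changed by -0.56 (95% interval -1.18 to 0.06), or by -0.31 without GATA3 replicate 3. The 3 remaining probe sets of ERAP1 (209701_at, 214012_at and 214034_at) lay at the floor of 2.16 on every array. The 4 remaining of ERAP2 (235104_at, 219759_at, 1554273_a_at and 1554272_at) lay under 4.

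The light chain of class I molecules did not pass, and HLA-E differed by probe set. B2M read 14.38, 14.43 and 14.42 in the arrays labelled GATA3 and 14.34, 14.36 and 14.32 in the GFP control (216231_s_at). The groups did not overlap, yet the difference was 1.05-fold and did not pass (log2 change 0.07, 95% interval 0.00 to 0.13, adjusted p 0.109). Its other tested probe set (201891_s_at) changed by 0.09 (adjusted p 0.475), with 14.40 in GATA3 replicate 3 above all other arrays, and the change was 0.00 without that array. B2M probe set 232311_at lay at 2.24 to 2.30 and was not tested. For HLA-E, the probe set without a suffix for shared probes (200904_at) read 10.28, 10.24 and 10.00 in the arrays labelled GATA3 and 10.72, 10.61 and 10.51 in the GFP control. The groups stood apart, and HLA-E was 1.36-fold lower by this probe set (log2 change -0.44, SE 0.09, adjusted p 0.0227). That call ended when GFP control replicate 1 or 2 (adjusted p 0.0765 and 0.0812) or GATA3 replicate 2 (0.0559) was left out, and with no filter on low values (0.0857).

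The brighter HLA-E probe sets carry the suffix for probes that can bind other, similar transcripts, among which other class I genes are likely. They were also lower, by less. Probe set 200905_x_at read 12.22, 12.20 and 12.00 in the arrays labelled GATA3 and 12.32, 12.33 and 12.29 in the GFP control (change -0.17, adjusted p 0.104), and 217456_x_at changed by -0.23 (adjusted p 0.0618). Without GATA3 replicate 3 both passed, at adjusted p-values of 0.0465 and 0.0340, with smaller changes of -0.11 and -0.16. HLA-B and HLA-C, classical class I heavy chains, were read only by probe sets of that suffix. HLA-B averaged 13.59 ± 0.09 in the arrays labelled GATA3 and 13.64 ± 0.09 in the GFP control (209140_x_at; SD, n = 3 each), a change of -0.06 (95% interval -0.22 to 0.11). HLA-C changed by 0.00 (95% interval -0.11 to 0.10, 214459_x_at).

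**Figure D4:**
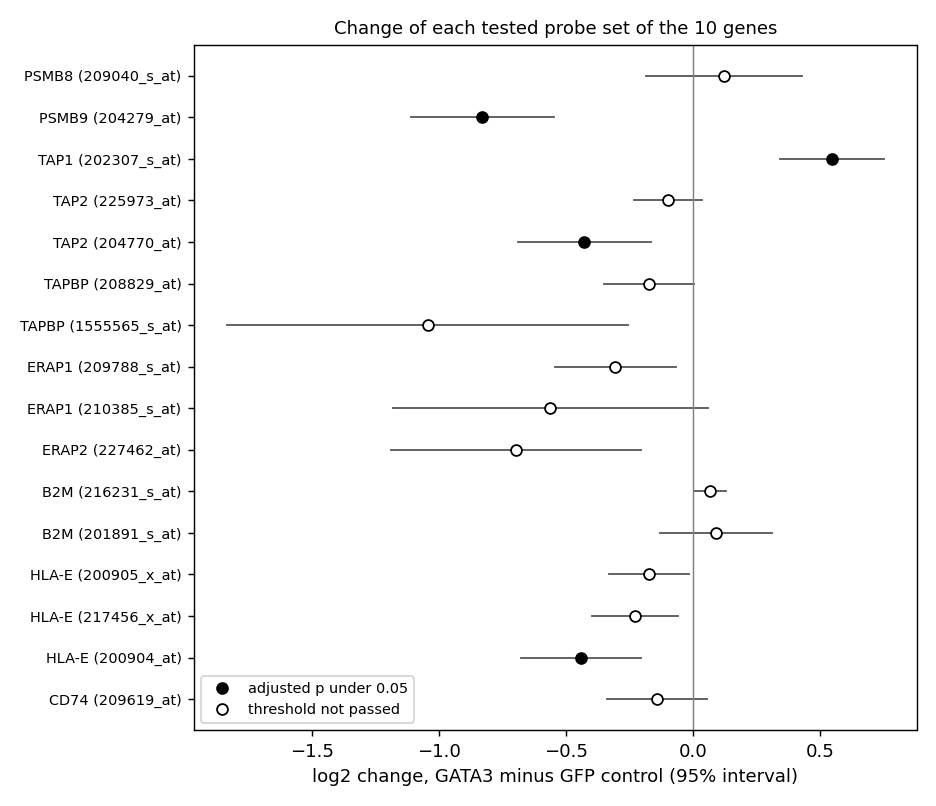
Change on the log2 scale, arrays labelled GATA3 minus GFP control (horizontal axis), with its 95% interval for the 16 tested probe sets, filled where the adjusted p was under 0.05. The 4 filled points are PSMB9, TAP1, TAP2 (204770_at) and HLA-E (200904_at), and only TAP1 is to the right of 0.

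CD74 was read over 4 on every array, while most class II HLA genes lay under 4. Its tested probe set (209619_at) read 8.58, 8.63 and 8.81 in the arrays labelled GATA3 and 8.81, 8.86 and 8.78 in the GFP control. The groups overlapped, and the change of -0.14 did not pass (95% interval -0.34 to 0.06, adjusted p 0.241). Without GATA3 replicate 3, the highest of its group, the change was -0.21 (adjusted p 0.0382). Its 2 other probe sets (1567627_at and 1567628_at) lay at 2.16 to 2.18. Of 10 class II HLA genes with a probe set of their own, 7 lay under 4 on every array by all 20 of their probe sets, HLA-DRA with a highest value of 3.05 and the highest of any at 3.20. HLA-DRB1 held a constant 4.16 on every array, and HLA-DMB read 5.74 to 6.08. A probe set of HLA-DOA passed 4 on a single array. CIITA, the master activator of class II genes, lay at 2.16 to 2.21 by all 3 probe sets in both groups.

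Lists of related genes were counted by the same test. The lists were chosen with earlier results of these data known. Of the 89 listed genes, 66 were tested, 11 were higher, 13 lower and 42 did not pass, against the background of 29.3% of all genes. Of these, NLRC5, CTSS and CXCR4 passed the filter only through the group where they were high, and so had to differ. Without them 10 of 63 were higher and 11 lower. The median change was -0.01 over the 66 genes and -0.0047 over the 63, against -0.02 over all genes.

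Genes of class I loading and trafficking did not pass. Of 12 tested, 0 were higher and 0 lower by their brightest probe set, against 14.8% and 14.5% of all genes. Their median was 0.00, although CALR differed by probe set. CALR encodes the chaperone calreticulin. Its probe set without a suffix for shared probes (200935_at) read 8.88, 8.91 and 8.71 in the arrays labelled GATA3 and 9.59, 9.54 and 9.84 in the GFP control, 1.77-fold lower (adjusted p 0.00369). Its brightest probe set (212953_x_at) changed by 0.36 (adjusted p 0.557) and read 12.32 in GATA3 replicate 3, against 10.70 and 10.97 in the others of that group. CALR was named after its values were seen.

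Proteasome partners numbered 8 tested, of which 1 rose (PSMB5), 1 fell (PSMB10) and 6 did not pass. Of 7 tested peptidases of the cytosol and endoplasmic reticulum, 1 rose and 2 fell. Both lists are small, and over all genes 14.8% were higher and 14.5% lower. TPP2, tripeptidyl peptidase 2, which cuts long peptides left by the proteasome, fell 1.81-fold to 8.50 ± 0.21 in the arrays labelled GATA3, against 9.36 ± 0.12 in the GFP control (SD, n = 3 each; log2 change -0.86, adjusted p 0.00631). Its second probe set fell 1.75-fold (adjusted p 0.0128), and the dimmest did not pass. LAP3, leucine aminopeptidase 3, changed by -0.19 (adjusted p 0.0117). IDE, insulin-degrading enzyme, rose 1.27-fold (adjusted p 0.0419), a call lost when any 1 array was left out. A dimmer IDE probe set rose 1.33-fold (adjusted p 0.0267), and the other did not pass (0.115).

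Regulators of MHC genes went both ways. Of 13 tested, 3 rose, 5 fell and 5 did not pass, against 14.8% of all genes higher and 14.5% lower. Their median change was -0.22. IRF1, an interferon-induced activator that binds response elements of the kind printed above, read 8.44, 8.26 and 7.76 in the arrays labelled GATA3 and 9.11, 9.10 and 9.19 in the GFP control. It fell 1.97-fold (202531_at, log2 change -0.98, adjusted p 0.0140), a call lost without GFP control replicates 1, 2 or 3 (adjusted p 0.0533, 0.0553 and 0.0613). A dimmer IRF1 probe set changed by -0.32 (adjusted p 0.124). RFX5, a subunit of the factor that binds the X box of class I and II promoters, fell 1.57-fold to 10.01 ± 0.11 in the arrays labelled GATA3, against 10.66 ± 0.04 in the GFP control (SD, n = 3 each; adjusted p 0.00180). Its other probe set changed by -0.57 (adjusted p 0.0511).

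NLRC5, an activator of class I genes, was near the detection level. It read 4.31, 4.46 and 4.60 in the arrays labelled GATA3 and 3.72, 3.47 and 3.80 in the GFP control, at least 1.37-fold higher. Only the arrays labelled GATA3 carried it past the filter on low values, so it had to differ, and without it 2 of 12 regulators rose. IRF9, part of the complex that carries interferon signals to DNA, rose 1.56-fold (adjusted p 0.0271), a call that ended when GFP control replicate 2 or 3 or GATA3 replicate 1 or 2 was left out.

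Among interferon receptors, kinases and their brakes, 3 of 10 tested rose, 1 fell and 6 did not pass, with a median of 0.15. The shares over all genes were 14.8% higher and 14.5% lower. JAK1, the kinase at both types of interferon receptor, read 11.65, 11.69 and 11.92 in the arrays labelled GATA3 and 11.06, 11.11 and 11.10 in the GFP control, 1.58-fold higher (adjusted p 0.00321). Its 2 other tested probe sets did not pass (changes of 0.26 and 0.29). IFNGR2, a chain of the interferon-gamma receptor, rose 1.47-fold (adjusted p 0.00264). PTPN2, a phosphatase that acts on JAK1, rose 1.15-fold by its brightest probe set (adjusted p 0.0372), a call that ended without any 1 of the GFP controls, GATA3 replicate 1 or GATA3 replicate 2. Its other tested probe sets changed by 0.05 and -0.03 and did not pass. SOCS3, an inhibitor of cytokine signalling, fell 2.88-fold to 7.65 ± 0.09 in the arrays labelled GATA3, against 9.18 ± 0.10 in the GFP control (SD, n = 3 each; adjusted p 0.000185). Its other tested probe sets changed by -0.31 and -0.25 and did not pass.

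Of 6 tested genes in the list of nonclassical class I and natural killer ligands, 3 rose, 1 fell and 2 did not pass, with a median of 0.37. Over all genes 14.8% were higher and 14.5% lower, and 6 genes are too few to read a direction for the list. The products of the 3 that rose are known to mark stressed cells for natural killer cells. MICA read 10.90, 10.68 and 10.73 in the arrays labelled GATA3 and 10.00, 9.90 and 10.19 in the GFP control, 1.67-fold higher (adjusted p 0.00439). ULBP2 rose 1.47-fold (238542_at, adjusted p 0.000888), and its dimmer probe set changed by 0.40 (adjusted p 0.0623). MICB rose 1.25-fold (adjusted p 0.0346), a call that ended when GFP control replicate 1 or 2 or any array labelled GATA3 was left out. HFE, a class I-like protein of iron sensing, was lower by its brightest probe set, with a log2 change of -0.49 (adjusted p 0.0107), and none of its other probe sets passed.

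Of 6 tested genes of the class II pathway, 0 rose and 2 fell, against 14.8% of all genes higher and 14.5% lower. LGMN, a lysosomal protease that takes part in cutting CD74 and antigens, fell 1.48-fold to 8.02 ± 0.09 in the arrays labelled GATA3, against 8.59 ± 0.10 in the GFP control (SD, n = 3 each; adjusted p 0.00675). CTSS, the cathepsin that makes the last cuts in CD74, lay under 4 on all arrays labelled GATA3 and at 4.53 ± 0.38 (SD, n = 3) in the GFP control, at least 1.44-fold lower. It passed the filter only through the GFP control arrays, and without it 1 of 5 genes of the pathway fell. The list of MIF, a ligand of CD74, the co-receptors CD44 and CXCR4, and SPPL2A, a protease that cuts CD74, had 4 tested genes. CXCR4, a chemokine receptor, lay at 3.01, 2.23 and 3.03 in the arrays labelled GATA3 and at 4.86, 4.40 and 5.05 in the GFP control by 217028_at, at least 1.70-fold lower. CXCR4 passed the filter only through the GFP control arrays, and of the other 3 genes 0 passed the test. Its 2 other probe sets lay at the floor of 2.16.

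**Figure D5:**
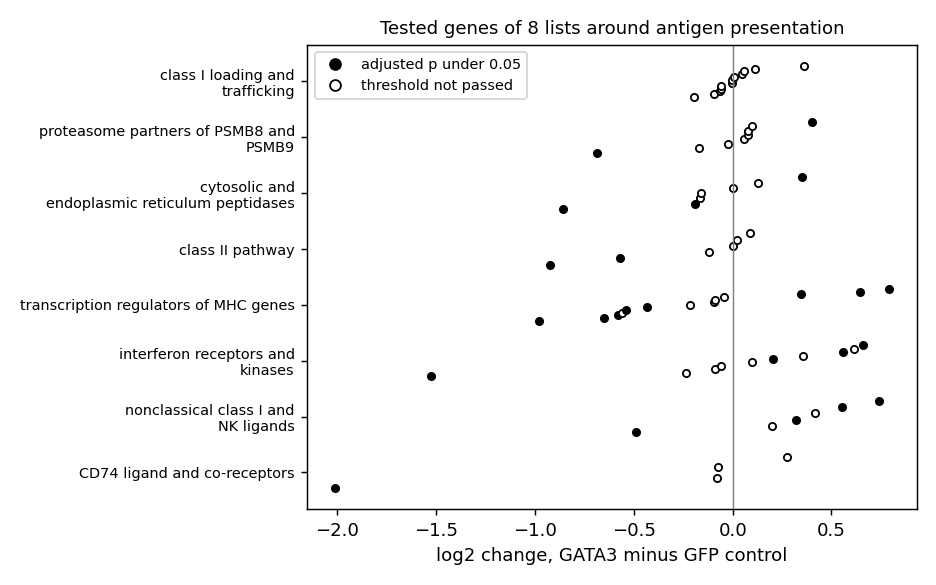
Change on the log2 scale, arrays labelled GATA3 minus GFP control (horizontal axis), for the 66 tested genes of 8 lists, filled where the adjusted p was under 0.05. No gene of class I loading and trafficking is filled, and regulators of MHC genes have filled points on both sides of 0. NLRC5, CTSS and CXCR4 were tested only through the group where they were high.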

How the data were processed

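The deposited table holds 54675 probe sets by 6 arrays. The authors used GCRMA to make the deposited values, read here as log2 from their range, per the submitters' processing notes for the tool, with the scale not given in the sources used here. Many probe sets lie at 2.16, the lowest value, which all arrays share. Values were used as deposited, and the 62 control probe sets were left out. Sequences are RefSeq's (GRCh38.p14), and all 10 members matched by gene ID and symbol. The groups were compared with limma 3.58.1 in R 4.3.3 (lmFit, eBayes with an intensity trend, no covariates). For each gene the brightest tested probe set, by its mean over the 6 arrays, was used. Where a whole group lay under 4, a fold is given as a lower bound, the brighter mean against 4. All members were named, and of each list up to 4 genes with the largest change past the threshold, or the brightest where none passed. A few regulators and subunits were named whatever their values. Members and lists were chosen with earlier results of these data known. Alternatives left out each array, used the replicate number as a block, rescaled, changed the filter, the trend and the choice of probe set, or weighted arrays. The fit was first tested on simulated data. Same-numbered arrays of the groups had deviations that correlated at -0.13, 0.16 and -0.11. Differently numbered arrays gave -0.25 to 0.23, so these values cannot tell whether the numbers pair the arrays. The number of arrays limits the precision.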

Additional observations from a re-analysis of the deposited data

How the results depend on the processing

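TAP1 stayed higher and PSMB9 lower past the threshold in all 13 alternatives run for them, with changes of 0.48 to 0.59 and -0.91 to -0.75. With 1 array left out, HLA-C ranged over -0.0367 to 0.0154 and PSMB7 over -0.0629 to 0.0147, the members gave 1 to 1 genes higher and 1 to 3 lower, the related lists 6 to 12 higher and 9 to 16 lower, and all probe sets 3688 to 7333 passes. Members lower numbered 3 after quantile normalization, 2 after cyclic loess and 2 with the filter over 6. Of all tested probe sets, 3883 of 23792 were lower after quantile normalization and 3573 of 23831 after cyclic loess. With the filter over 6, 3441 of 19663 probe sets were lower. By the mean of all tested probe sets of a gene, 1 member was higher and 5 lower, against 1642 and 1987 of 10814 genes. With the suffix _at alone, members were 0 higher and 2 lower. That choice left 6 member genes and no probe set of TAP1. Without a filter on low values 3613 probe sets passed and 6 list genes were higher, and HLA-E (200904_at, adjusted p 0.0857), TAP2 (204770_at, 0.108), PSMB10 (0.157), IDE (0.129), CTSS (0.0909), IRF1 (0.0636), IRF9 (0.0973), PTPN2 (0.0671) and MICB (0.126) did not pass. PTPN2 did not pass without the intensity trend either (0.0508). With array weights, whose fit did not converge, 11837 probe sets passed, members were 3 higher and 7 lower, and list genes 19 higher and 22 lower. The cause of these moves was not tested. All 10 members were tested under either other filter, and ERAP2 (227462_at) passed with the filter over 6 (adjusted p 0.0357 by limma). List genes tested numbered 59 with the filter over 6, 82 with no filter and 44 with the suffix _at alone. The direction turned for HLA-C without GFP control replicate 2 (0.0154), GATA3 replicate 2 (0.0143) or GATA3 replicate 3 (0.0084) and after cyclic loess (0.0240), and for PSMB7 without GFP control replicate 1 (0.0147) or GATA3 replicate 3 (0.0076) and after cyclic loess (0.0068), never past the threshold. With the replicate block, members stayed at 1 higher and 1 lower and 4128 probe sets passed. HFE, IDE, PTPN2, PSMB10 and TAP2 (204770_at) no longer passed with that block, at adjusted p-values of 0.0556, 0.0629, 0.106, 0.0767 and 0.0802. Signal limits what can be said of probe sets under 4, which were not tested.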
